A study of Mus musculus with 20 samples.

Results

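Mouse hepatocyte organoids were compared with liver collected 6 h and 12 h after partial hepatectomy (PHx), the surgical removal of 70% of the liver. Organoids are 3-dimensional cultures, here grown from hepatocytes embedded in Matrigel, a basement-membrane gel. The comparison used 6 of the 20 libraries of the series, taken by their labels: 2 of organoids, 2 at 6 h and 2 at 12 h. It covered 11668 of the 54532 genes measured by RNA sequencing. These had at least 1 FPKM (fragments per kilobase of transcript, as scaled by the authors) in 2 or more of the 6 libraries. All samples carry the label C57BL/6, and the labels name no transgene and no treatment besides surgery. The other group used was undamaged liver of the same strain, with 2 libraries, which gave the background level of each gene. The growth protocol describes freshly isolated hepatocytes for liver, and organoids that were collected at a passage without a stated number. Replicate 2 of 6 h and of 12 h is labelled liver without the cell type label primary hepatocyte that replicate 1 carries. The sources used here give no age, sex or culture medium, and do not say whether animals or cultures were pooled.

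After the loss of liver mass, the hepatocytes that remain leave rest within hours. Immediate-early transcription factors respond first, tumour necrosis factor and interleukin-6 from resident macrophages act through NF-kB and STAT3, and ligands of the MET and EGFR receptors then carry cells towards DNA synthesis. In the same hours the liver secretes acute-phase proteins, stores lipid drawn from fat tissue and keeps up glucose output. Organoid culture replaces the surroundings of the hepatocyte with gel and medium, and blood, fat tissue and most other liver cells are missing from it.

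Organoid libraries held 22.9 and 24.3 M recovered reads (M, 1000000) and the early liver libraries 17.3 to 41.3 M. Deposited FPKM summed to 167676 and 184765 in organoids and to 416705 to 951765 in early liver. Mitochondrial reads made up 3.17% and 3.26% of organoid reads and 12.6% to 40.7% of early liver reads, highest in 6 h replicate 2. The 10 most abundant genes took 17.6% and 18.7% of the organoid FPKM and 31.8% to 55.2% of the early liver FPKM. Undamaged replicate 2 stood apart from replicate 1 in acute-phase and macrophage genes, for example Saa1 at 19.9 and 20927 FPKM in undamaged replicates 1 and 2, so each undamaged level is given as both values. Nothing in the labels ties the libraries of 1 group to different animals or dishes, so the p-values speak of the spread between these libraries alone, which may be technical. Bulk RNA cannot tell fewer cells of a type from less RNA per cell.

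Over all genes tested, the organoid level was higher than in early liver for 1418 genes (12.2%) and lower for 1661 (14.2%). A gene was called higher or lower at a Benjamini-Hochberg adjusted p under 0.05 in limma and a difference of at least 1 in log2(FPKM + 1), organoid mean minus the mean of 6 h and 12 h. A gene was called held within 2-fold where the 95% confidence interval of that difference lay between -1 and 1, which was so for 3327 genes (28.5%). Many of the held genes were weakly expressed. Of the 4760 genes with a mean of at least 5 FPKM, 926 were held (19.5%), 548 were higher (11.5%) and 1012 were lower (21.3%). Both organoid libraries lay above or below all 4 early libraries for 6735 genes (57.7%). The median difference over all genes was -0.04. Against 6 h alone 1275 genes were higher (10.9%) and 1554 lower (13.3%), and against 12 h alone 1254 were higher (10.7%) and 1342 lower (11.5%).

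These counts rest on both organoid libraries and on the authors' scaling. Without organoid replicate 1 there were 654 genes higher, 535 lower and 1000 held, and without replicate 2 there were 692, 574 and 939. Leaving out 1 early library gave 1169 to 1476 higher, 1372 to 1845 lower and 2753 to 3480 held calls. When every library was rescaled to the same FPKM sum, the median difference moved to 1.35, and 7012 genes were higher and 853 lower. Measured relative to that shift, 1282 were higher, 1988 lower and 665 held. Differences below are on the authors' scaling, and a held gene is held on that scaling alone.

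**Figure D1:**
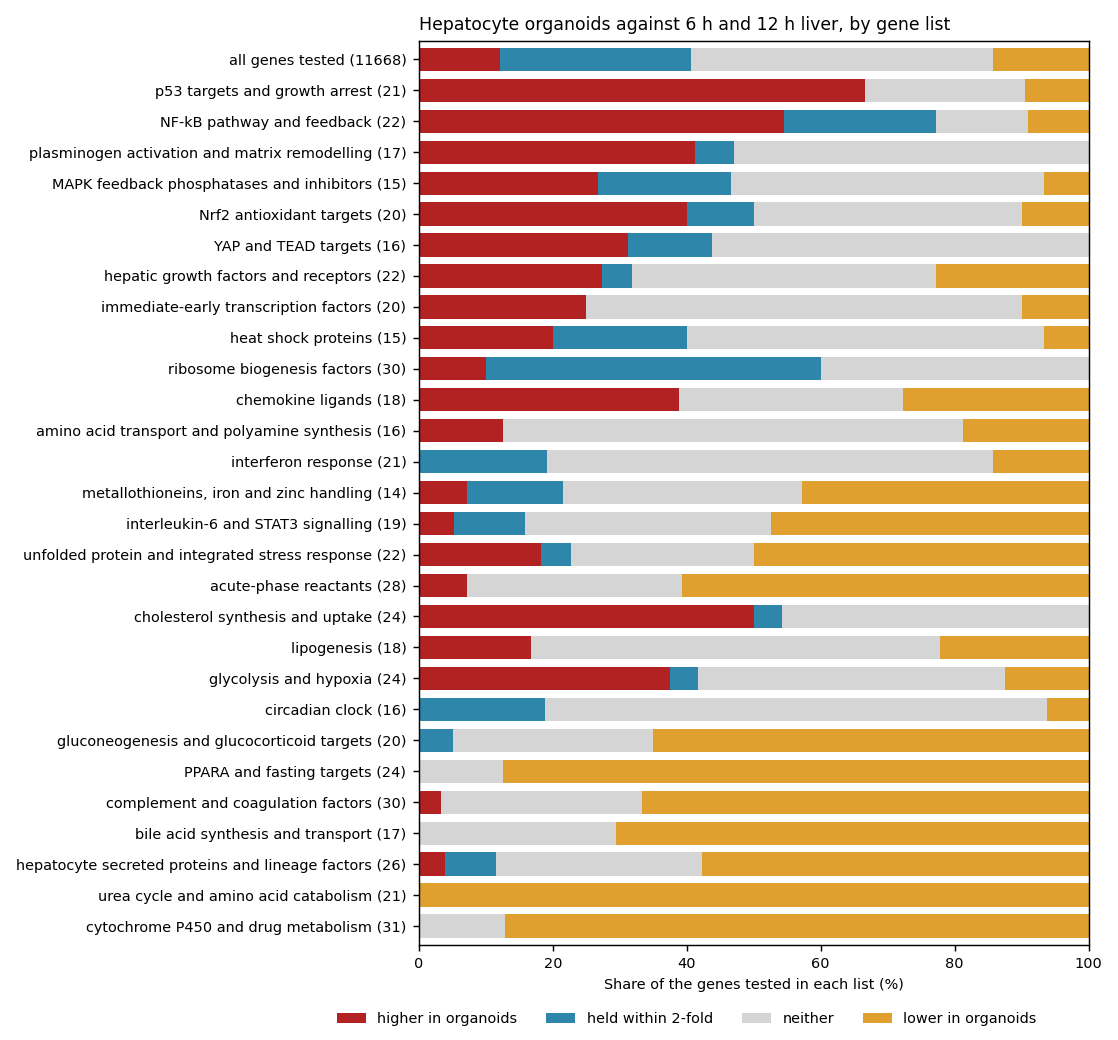
Stacked bars give, for each gene list, the percent of its tested genes (number in parentheses) that were higher in organoids, held within 2-fold, lower in organoids, or none of these, against the mean of 6 h and 12 h liver. The top bar holds all 11668 genes. Bars for p53 targets and the NF-kB pathway are mostly in the higher colour, the ribosome biogenesis bar has the largest held share with 15 of 30, and the bars of the 5 hepatocyte function lists are mostly in the lower colour.

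Beside every list count below stand the shares of all genes, 12.2% higher, 14.2% lower and 28.5% held. The early injury response was followed in 17 gene lists with 335 tested genes. Of these 84 were higher in organoids, 69 lower and 41 held (all genes 12.2%, 14.2% and 28.5%), with a median difference of 0.03, and 19 of the 41 held had a mean of at least 5 FPKM over the 6 libraries. With 1 library left out the counts ranged from 49 to 83 higher, 21 to 68 lower and 8 to 47 held, lowest without an organoid library. The 4 early libraries against undamaged liver had 196 genes higher (1.61%) and 475 lower (3.91%) of 12146 tested, and of the 335 early genes 10 were higher and 11 lower. These calls depended on single libraries: with 1 of the 8 left out there were 17 to 230 higher and 75 to 446 lower, fewest without undamaged replicate 1 (17 and 114) or either organoid library (23 and 83, 21 and 75), whose spread enters the fit. Organoids against undamaged liver had 1137 genes higher (9.36%) and 1363 lower (11.2%). Both comparisons share libraries with the main one, so their values are only set side by side.

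NF-kB is a dimeric transcription factor held in the cytoplasm by inhibitors, some of which it also induces as feedback. Its activity was not measured here, only the mRNA of genes in its pathway. The genes of this pathway were mostly higher in organoids, with 12 of 22 higher (54.5%), 2 lower and 5 held, and a median difference of 1.23. Over all genes 12.2% were higher, 14.2% lower and 28.5% held. Of the 12 higher members, 11 were higher against both 6 h and 12 h taken alone. No member was called higher or lower in early against undamaged liver, so the list was not called as raised after hepatectomy. Below, all levels are FPKM: organoid and undamaged pairs are replicates 1 and 2, and the 4 early values they are set against are 6 h replicates 1 and 2, then 12 h replicates 1 and 2. Nfkb2, which encodes the p100 precursor of the non-canonical pathway, stood at 27.4 and 17.2 FPKM in organoids and 2.65, 3.38, 2.74 and 2.38 in early liver (undamaged 1.53 and 5.17). Its partner Relb stood at 10.1 and 7.27 in organoids and 1.47, 1.17, 0.709 and 0.724 in early liver. All organoid values lay above all early values for both genes, with differences of 2.59 ± 0.26 (SE) and 2.26 ± 0.21 (SE) and adjusted p = 0.00160 and 0.00133.

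Feedback inhibitors of NF-kB were also higher. Tnfaip3, the ubiquitin-editing enzyme A20, stood at 9.34 and 10.3 FPKM in organoids and 2.43, 0.429, 0.824 and 0.421 in early liver, a difference of 2.52 ± 0.37 (SE) with adjusted p = 0.00563. Nfkbia, the inhibitor IkB-alpha, stood at 54.2 and 76.2 in organoids and 43.1, 22.4, 19.1 and 24.3 in early liver, with the nearest early value in 6 h replicate 1. Its difference of 1.28 ± 0.38 (SE) passed narrowly, with adjusted p = 0.0482. Icam1, an adhesion molecule that binds leukocytes, stood at 42.5 and 34.3 in organoids and 3.93, 4.43, 4.07 and 2.77 in early liver, a difference of 3.04 ± 0.24 (SE) with adjusted p = 0.000867. Rela, the p65 subunit, was held: 19.8 and 16.6 FPKM in organoids lay among 31.7, 16.8, 15.4 and 20.1 in early liver (difference -0.15, 95% interval -0.99 to 0.69). Birc2, an inhibitor of apoptosis that acts below the tumour necrosis factor receptor, was also held at 7.24 and 10.1 against 9.76, 9.61, 6.60 and 6.49. The 2 members called lower were the receptors for tumour necrosis factor, Tnfrsf1a at 24.4 and 27.5 against 63.8, 62.4, 45.8 and 77.2, and Tnfrsf1b at 3.34 and 3.49 against 9.26, 5.18, 10.6 and 7.45. Their differences of -1.21 ± 0.35 (SE) and -1.01 ± 0.28 (SE) (adjusted p = 0.0412 and 0.0399) turned to 0.51 and 0.46, neither called, with every library rescaled to the same FPKM sum, where Rela was 1.54 higher instead of held.

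With either organoid library left out 7 members of the NF-kB list were higher and none lower. Adjusted p then reached 0.141 for Nfkb1, the p105 precursor gene, 0.284 for Nfkbia and 0.0569 for Tnfaip3, and 0.262 for Tnfrsf1a and 0.221 for Tnfrsf1b. Nfkbia also lost its call without 6 h replicate 2 or either 12 h library, Tnfrsf1a without 12 h replicate 2 or either 6 h library, and Tnfrsf1b without 6 h replicate 1 or either 12 h library.

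Chemokines, the secreted attractants of leukocytes, split into groups that went opposite ways: 7 of 18 were higher, 5 lower and none held, with a median of -0.07 (1.11 at the same FPKM sum, with 9 higher and 3 lower). Ccl20, which attracts lymphocytes and dendritic cells and is made by many epithelia, stood at 228 and 454 FPKM in organoids and 0.0361, 0, 0 and 0 in early liver (undamaged 0 and 0.129), so that it was detected in early liver in 6 h replicate 1 alone. Cxcl5, a neutrophil attractant (chr5:90759360-90761624), stood at 224 and 724 in organoids and 0.689, 0.02005, 0.315 and 0.0343 in early liver. Ccl2, the main monocyte attractant, stood at 249 and 332 in organoids and 6.04, 2.82, 5.27 and 0.618 in early liver. No organoid value of these 3 genes came near an early value, and the differences were 8.32 ± 0.31 (SE), 8.35 ± 0.51 (SE) and 6.15 ± 0.59 (SE), with adjusted p = 0.000246, 0.000530 and 0.00156. Cxcl16, a membrane-bound chemokine, was also higher, at 25.7 and 28.0 against 1.70, 1.04, 1.63 and 1.92. Cxcl10, an attractant of T cells, was higher at 18.0 and 3.91 against 0.205, 0.166, 0.160 and 0.625, a difference of 2.92 ± 0.53 (SE) that was 1.94 without organoid replicate 1, and the 2 organoid libraries lay far apart.

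The neighbouring neutrophil attractants Cxcl1 (chr5:90891241-90893115) and Cxcl2 (chr5:90903871-90905938) differed from each other. Cxcl2 stood at 26.0 and 53.4 FPKM in organoids and 10.6, 1.73, 2.99 and 0.387 in early liver, above every early library, with a difference of 3.40 ± 0.72 (SE) and adjusted p = 0.0173. Cxcl1 stood at 129 and 124 in organoids and 376, 89.4, 23.1 and 44.8 in early liver (undamaged 8.92 and 51.4). Its organoid values lay inside the early range, below 6 h replicate 1 and above the other 3, and the interval of -0.90 to 2.31 is too wide to call it held. Cxcl12, the ligand of CXCR4, was lower at 0.109 and 0.0264 against 3.22, 11.1, 16.8 and 11.5. Early liver was itself called lower than undamaged liver for Cxcl12 (difference -2.02), a call that depended on single libraries. Ccl6, a chemokine of myeloid cells, was lower at 2.97 and 0.0219 against 63.6, 16.9, 43.3 and 14.02. Leaving out 1 library ended the call of Cxcl2 (either organoid library or 12 h replicate 2, adjusted p up to 0.133) and of Ccl6 (organoid replicate 2, adjusted p = 0.127). Without organoid replicate 2 the list had 2 lower calls in place of 5. Summed neutrophil markers were 4.52 and 1.57 FPKM in organoids and 59.8 to 917 in early liver, and their part in the chemokine levels of early liver was not tested.

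To show promoter sequence that some of these inflammatory genes hold, 9-base matches to an NF-kB motif, spelled GGANTTTCC or GGAAANTCC on the other strand, were sought from 250 bases before to 50 bases after each RefSeq start on GRCm38.p6, the mm10 build. The motif was found in 5 of 19 NF-kB list genes with a promoter entry (26.3%), 3 of 16 chemokine genes (18.8%), none of 22 acute-phase genes and 392 of all 27025 genes (1.45%). Other early lists held it too, such as 3 of 19 immediate-early genes (15.8%) and 2 of 16 interferon response genes (12.5%). A match is a description of the sequence, not evidence of binding. The stretches below, all upstream of the start, are read 5′ to 3′ on the strand of the gene with the match in capitals. Nfkbia (chr12:55492648-55492706, minus strand) and Tnfaip3 (chr10:19015411-19015464, minus strand) encode the feedback inhibitors, Cxcl1 (chr5:90891145-90891213, plus strand) and Cxcl2 (chr5:90903773-90903841, plus strand) the neighbouring chemokines, and Icam1 (chr9:21015757-21015825, plus strand) the adhesion molecule.
Nfkbia: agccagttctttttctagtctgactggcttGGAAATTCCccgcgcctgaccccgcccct
Tnfaip3: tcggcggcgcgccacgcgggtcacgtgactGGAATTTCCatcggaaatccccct
Cxcl1: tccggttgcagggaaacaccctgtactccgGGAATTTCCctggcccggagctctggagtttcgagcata
Cxcl2: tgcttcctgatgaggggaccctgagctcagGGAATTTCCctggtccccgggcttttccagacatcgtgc
Icam1: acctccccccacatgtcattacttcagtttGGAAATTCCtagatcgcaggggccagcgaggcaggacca
Cxcl1, Cxcl2 and Tnfaip3 carry the same 9 bases, and Nfkbia and Icam1 carry these bases as read on the other strand. All 5 stretches thus hold the same site. Nfkbia has a second match, not shown, 178 to 170 bases before the start. Of the 5 genes shown Cxcl1 alone was not called higher in organoids.

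Interleukin-6 binds its receptor IL6RA together with the shared subunit gp130 (Il6st), which activates JAK kinases and STAT3, and STAT3 in turn induces its inhibitor SOCS3. On the authors' scaling 9 of 19 tested genes of this arm were lower in organoids, 1 higher and 2 held, with a median of -1.21. With every library rescaled to the same FPKM sum this turned to 8 higher and 5 lower, with a median of 0.24, and relative to the shift of all genes there were 1 higher and 6 lower. Among receptors, Il6ra stood at 0.244 and 0.107 FPKM in organoids and 3.42, 2.99, 2.12 and 2.36 in early liver (undamaged 5.77 and 7.89), a difference of -1.65 ± 0.18 (SE) with adjusted p = 0.00208. Il6st stood at 5.23 and 5.77 in organoids and 20.8, 16.6, 12.2 and 13.5 in early liver. Lifr, the receptor of leukaemia inhibitory factor, stood at 2.99 and 2.92 against 10.4, 9.33, 6.75 and 10.2, and neither gene overlapped. Their differences were -1.34 ± 0.23 (SE) and -1.35 ± 0.23 (SE), with adjusted p = 0.00832 and 0.00880, and with every library rescaled to the same FPKM sum they turned to 0.24 and 0.12, neither called. For Lifr early liver was itself lower than undamaged liver (difference -2.44, limma adjusted p = 0.00763). Il1r1, the receptor for interleukin-1, stood at 2.36 and 3.27 in organoids and 91.8, 102, 83.1 and 76.2 in early liver, with all early values above the undamaged 6.42 and 71.0. Its difference of -4.55 ± 0.28 (SE) had adjusted p = 0.000530. Osmr, the oncostatin M receptor, was held at 2.90 and 2.05 against 3.44, 2.22, 1.93 and 1.40 (difference 0.12, 95% interval -0.46 to 0.70), as was the kinase gene Tyk2 at 2.97 and 3.11 against 2.68, 2.96, 2.74 and 3.50.

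Stat3, the gene of the transcription factor itself, stood at 11.7 and 11.1 FPKM in organoids and 22.0, 12.8, 11.9 and 15.0 in early liver, an uncalled difference of -0.37 ± 0.30 (SE) that turned to 1.29 higher when rescaled to the same FPKM sum. Its target Socs3 stood at 6.42 and 2.21 in organoids and 94.9, 59.3, 11.9 and 29.2 in early liver (undamaged 2.14 and 15.7). Socs3 was highest at 6 h, and all early values lay above both organoid values, with a difference of -2.99 ± 0.52 (SE) and adjusted p = 0.00913. Against 12 h alone Socs3 was not called. The PIM kinases, further STAT3 targets, were lower. Pim1 stood at 0.330 and 0.447 against 26.4, 10.3, 6.35 and 5.95. Pim3 stood at 7.43 and 7.01 against 128, 149.8, 28.4 and 68.5, and no organoid value of either came near early liver. The single member that was higher was Lif, a ligand of the family, at 13.7 and 5.80 in organoids and 0.0236, 0, 0.0415 and 0 in early liver (difference 3.30 ± 0.33 (SE), adjusted p = 0.00165). Without organoid replicate 1 there were 5 lower calls and without replicate 2 there were 4: adjusted p reached 0.0890 for Socs3, 0.101 for Il6st and 0.0903 for Lifr.

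**Figure D2:**
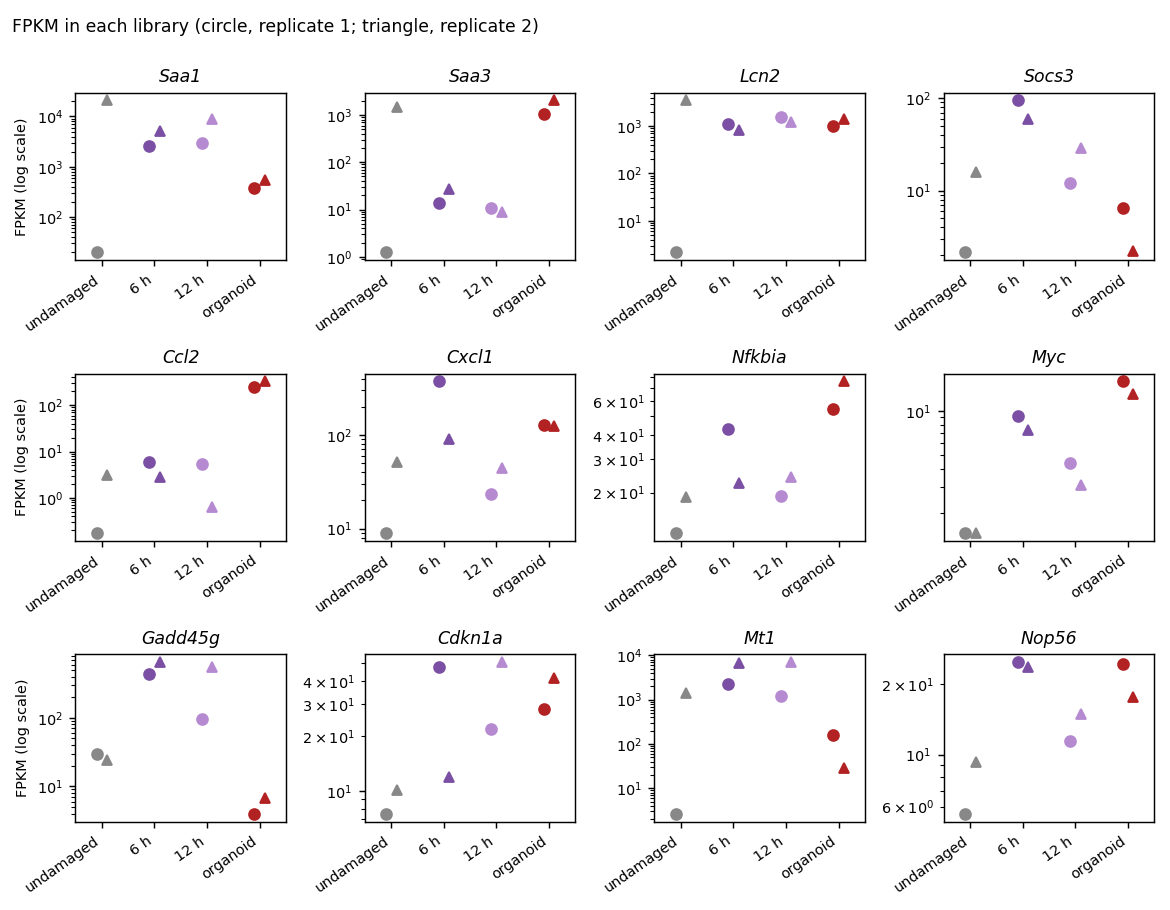
Each panel plots FPKM of 1 gene on a log axis in the 8 libraries of undamaged, 6 h, 12 h and organoid samples, with circles for replicate 1 and triangles for replicate 2. Saa1, Socs3, Gadd45g and Mt1 lie lower in both organoid libraries than in all 4 early libraries, Saa3, Ccl2, Nfkbia and Myc lie higher, and Lcn2, Cxcl1, Cdkn1a and Nop56 lie within the early range.

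Acute-phase proteins are secreted into plasma by hepatocytes during inflammation, under C/EBP, STAT3 and NF-kB factors. In organoids 17 of 28 were lower, 2 were higher and none was held, with a median of -2.47. The 3 inducible serum amyloid A genes lie next to each other and differed in direction. Saa1 (chr7:46740497-46742980) stood at 382 and 545 FPKM in organoids and 2606, 5191, 3029 and 8941 in early liver. Saa2 (chr7:46751790-46754313) stood at 135 and 299.6 against 2731, 8243, 3113 and 12882 (undamaged 5.91 and 24079). Both were below all early libraries, with differences of -3.26 ± 0.70 (SE) and -4.76 ± 0.87 (SE) and adjusted p = 0.0173 and 0.0106. Saa1 and Saa2 are near-identical copies, so the split of reads between them is uncertain. Saa3 (chr7:46711998-46715700), the form made outside hepatocytes as well, stood at 1047 and 2048 in organoids and 14.04, 26.8, 11.01 and 8.87 in early liver (undamaged 1.24 and 1449.8). Saa3 was above every early library, with a difference of 6.62 ± 0.46 (SE) and adjusted p = 0.000684, a mean 102 times the early mean. Of the 6 liver libraries used, undamaged replicate 2 alone had a Saa3 level of the same order.

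Other hepatocyte acute-phase genes were lower. Serpina3n, a protease inhibitor, stood at 79.0 and 47.2 FPKM against 2298, 2327, 3459 and 2826, a difference of -5.44 ± 0.49 (SE) with adjusted p = 0.00127. Hamp, which encodes the iron hormone hepcidin, stood at 16.4 and 207 against 1767, 10678, 1881 and 12918, so the 2 organoid libraries lay far apart yet below all early ones. The fibrinogen chains Fga, Fgb and Fgg had differences of -3.18, -3.07 and -4.20, with Fgb at 764 and 258 against 3054, 3188, 4803 and 4159. Cebpb and Cebpd, factors that act on these genes, were also lower. Cebpb stood at 24.01 and 44.0 against 174, 181, 60.7 and 215. Cebpd stood at 4.22 and 3.50 against 15.4, 16.2, 7.13 and 16.9. Cp, the copper carrier ceruloplasmin, was the second higher member, at 611 and 386 against 77.3, 80.4, 72.5 and 58.7 (difference 2.74 ± 0.40 (SE), adjusted p = 0.00521).

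Among members that were not called, Lcn2, an iron-siderophore binding protein, stood at 1030.2 and 1384 FPKM in organoids and 1105, 820.2, 1575 and 1241 in early liver (undamaged 2.16 and 3502). Its organoid values lay inside the early range, with a difference of 0.05 and a 95% interval of -1.18 to 1.28. C3, the central complement protein, stood at 1953 and 979 against 1096, 1438, 949 and 2227 and likewise lay inside the range. Hp, haptoglobin, stood at 7333 and 7048 against 8061, 16933, 11333 and 20513, below every early library and between the undamaged values of 2338 and 35737, and was not called. No interval of these 3 genes was narrow enough to call it held. Leaving out organoid replicate 1 or replicate 2 gave 6 lower calls in the list in each case. Adjusted p reached 0.133 for Saa1, 0.0980 for Saa2, 0.144 for Hamp, 0.119 for Fgb, 0.0903 for Fga, 0.0544 for the C-reactive protein gene Crp and 0.0625 for Cp. Cebpb and Cebpd lost their calls as well, with adjusted p up to 0.278 and 0.155, Cebpb also without either 6 h library or 12 h replicate 2. Hamp lost its call without 12 h replicate 2 too.

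In the same promoter windows the C/EBP motif TTGCNNAA (TTNNGCAA on the other strand) was found in 12 of 22 acute-phase genes with an entry (54.5%), none of 19 NF-kB list genes and 12.2% of all genes. The STAT motif TTCNNNGAA, which reads the same on both strands, was found in 7 of the 22 (31.8%), in 5 of the 19 NF-kB list genes (26.3%) and in 9.55% of all genes. The serum amyloid A promoters are shown because Saa1 and Saa2 went the other way from Saa3: Saa1 (chr7:46743125-46743192, minus strand), Saa2 (chr7:46751620-46751687, plus strand) and Saa3 (chr7:46715738-46715805, minus strand), with the C/EBP match in capitals.
Saa1: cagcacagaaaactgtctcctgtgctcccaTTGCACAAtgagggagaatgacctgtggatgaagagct
Saa2: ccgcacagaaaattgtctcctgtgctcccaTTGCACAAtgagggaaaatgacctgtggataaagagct
Saa3: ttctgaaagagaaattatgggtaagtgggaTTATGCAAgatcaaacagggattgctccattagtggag
Saa1 and Saa2 have the same 8 bases in capitals in near-identical surroundings, and Saa3 has a match on the other strand in a different surrounding. For the STAT motif, Socs3 (chr11:117969482-117969550, minus strand) and Hamp (chr7:30944088-30944156, minus strand) are shown, the feedback inhibitor and a secreted target that were both lower in organoids.
Socs3: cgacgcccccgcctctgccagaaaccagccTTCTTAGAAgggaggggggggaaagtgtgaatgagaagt
Hamp: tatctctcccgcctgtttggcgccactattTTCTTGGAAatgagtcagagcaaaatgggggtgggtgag
No relation between a match and a difference was tested.

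The first wave of transcription factors gave a mixed picture. Of 20 tested immediate-early genes 5 were higher, 2 lower and none held, with a median of 0.33 (-0.01 without 12 h replicate 1 and 0.63 without 12 h replicate 2, the lowest and highest with 1 library left out). Fos, a subunit of AP-1, stood at 18.6 and 1.44 FPKM in organoids and 17.8, 7.24, 0.748 and 6.02 in early liver (undamaged 9.91 and 3.95). Its partner Jun stood at 15.8 and 12.7 against 13.6, 16.0, 4.61 and 21.7 (undamaged 24.9 and 9.94). Egr1, a zinc-finger factor of the same wave, stood at 32.4 and 9.10 against 53.8, 8.10, 2.93 and 6.73 (undamaged 7.47 and 1.66). All 3 genes overlapped early liver, Fos and Jun overlapped undamaged liver as well, and the 95% interval for Fos was -2.32 to 2.46. Myc, a driver of growth and ribosome production, stood at 15.9 and 13.1 in organoids and 9.14, 7.33, 4.37 and 3.12 in early liver (undamaged 1.45 and 1.45). It was highest in organoids, next at 6 h, then 12 h, and lowest in undamaged liver, with no overlap between organoids and early liver (difference 1.23 ± 0.24 (SE), adjusted p = 0.0121). Ier3, a stress-induced survival gene, stood at 118 and 85.2 in organoids and 38.8, 11.8, 9.58 and 7.66 in early liver (undamaged 0.173 and 0.569). It too was above every early library, with a difference of 2.78 ± 0.50 (SE) and adjusted p = 0.0104.

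Fosl1, a later-acting member of the AP-1 family, was higher at 8.03 and 5.37 against 0.481, 1.53, 0.132 and 0.206. Maff, a small MAF factor, was higher at 9.87 and 9.34 against 3.50, 3.51, 0.922 and 2.50. Klf2, a factor known for its role in endothelium, was lower at 0.496 and 0.223 against 30.6, 15.7, 7.97 and 14.7 (difference -3.61 ± 0.36 (SE), adjusted p = 0.00175). Endothelial markers summed to 3.88 and 3.03 FPKM in organoids and 85.3 to 258 in early liver, and their part in the Klf2 difference was not tested. Csrnp1, a nuclear transcription factor, was lower at 3.39 and 2.71 against 20.04, 13.4, 10.7 and 7.96. Leaving out either organoid library gave 1 higher and 1 lower call, and adjusted p reached 0.122 for Myc, 0.0939 for Ier3, 0.0831 for Maff and 0.0762 for Csrnp1.

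Feedback inhibitors of the MAP kinase cascade, which growth factor receptors drive, had 4 of 15 higher, 1 lower and 3 held, with a median of 0.85, which moved to 0.33 without 6 h replicate 2, 0.41 without organoid replicate 1 and 0.13 with a term that sets replicate 2 of the early liver apart from the other libraries. Dusp6, the phosphatase specific for ERK, stood at 24.6 and 34.5 FPKM in organoids and 8.36, 6.08, 5.17 and 5.59 in early liver, with no overlap (difference 2.07 ± 0.26 (SE), adjusted p = 0.00320). Dusp4, its nuclear relative, stood at 11.99 and 8.92 against 1.24, 0.450, 0.675 and 0.759. Dusp1, the immediate-early phosphatase, stood at 4.74 and 18.8 against 29.3, 19.5, 3.83 and 15.4 and lay inside the early range without a call. Errfi1, a feedback inhibitor of EGFR, was the 1 lower member at 49.7 and 34.0 against 312, 288, 258 and 368 (difference -2.86 ± 0.41 (SE), adjusted p = 0.00494), and was not called without organoid replicate 2 (adjusted p = 0.0661). The list had 2 higher and 1 held call without either organoid library.

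Ligands and receptors of growth factors differed by family. Of 22 tested genes 6 were higher (27.3%), 5 lower (22.7%) and 1 held (4.55%), with a median of 0.36, beside 12.2%, 14.2% and 28.5% of all genes. The EGFR ligands amphiregulin, epiregulin, heparin-binding EGF and TGF-alpha were higher. Areg stood at 7.06 and 3.51 FPKM against 0.0845, 0.246, 0.186 and 0.0263. Ereg stood at 1.77 and 2.65 against 0.0124, 0.0452, 0.0547 and 0.0155. Each of these organoid values lay above every early value, and both genes were listed at 0 in both undamaged libraries. Hbegf stood at 6.38 and 2.48 against 0.670, 0.220, 0.190 and 0.256. Tgfa stood at 11.7 and 13.8 against 1.87, 1.21, 1.48 and 1.66. Each organoid value of this pair too lay above every early value. Tgfa was called lower in early than in undamaged liver (difference -1.06), a call that needed all 8 libraries. The differences of the 4 ligands were 2.41 ± 0.28 (SE), 1.63 ± 0.20 (SE), 1.94 ± 0.34 (SE) and 2.43 ± 0.21 (SE), with adjusted p = 0.00262, 0.00326, 0.00951 and 0.00114. The receptor Egfr was lower at 20.7 and 11.2 against 41.8, 75.8, 33.3 and 38.5 (difference -1.50 ± 0.40 (SE), adjusted p = 0.0344), which turned to 0.20 higher, not called, with every library at the same FPKM sum. Egfr lost its call without either organoid library, either 12 h library or 6 h replicate 2 (adjusted p up to 0.266).

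Hgf, the ligand of MET, which stellate and endothelial cells make in liver, stood at 0.00318 and 0.00273 FPKM in organoids and 4.81, 0.998, 1.19 and 1.02 in early liver. Its call (difference -1.42 ± 0.42 (SE), adjusted p = 0.0478) was lost without either organoid or either 12 h library, with adjusted p up to 0.212. Stellate and mesenchymal markers summed to 13.7 and 9.06 FPKM in organoids and 64.8 to 139 in early liver, and their part in the Hgf difference was not tested. Its receptor Met stood at 6.69 and 6.84 against 2.09, 6.13, 4.11 and 6.99, inside the early range. Ghr, the growth hormone receptor gene, stood at 1.04 and 0.985 against 7.70, 18.4, 12.7 and 17.9 (undamaged 80.8 and 58.2). Igf1, the hormone it induces, stood at 0.0624 and 0.0694 against 39.8, 117, 60.0 and 108. Neither overlapped, with differences of -2.84 ± 0.36 (SE) and -6.14 ± 0.50 (SE) and adjusted p = 0.00355 and 0.000982. Igfbp2, a carrier of insulin-like growth factor, was lower at 0.0372 and 0.0532 against 126, 146, 193 and 165. Igfbp1, the carrier that is induced within hours of hepatectomy, stood at 328 and 203 in organoids and 1450.4, 145, 187 and 291 in early liver (undamaged 25.4 and 118), inside the early range and without a call.

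Ribosome biogenesis, the making of new ribosomes in the nucleolus that precedes growth, was the early list with the largest held share. Of 30 factors 15 were held (all genes 28.5%), 3 were higher and none was lower, with a median of 0.12. Of the 15 held, 11 had a mean of at least 5 FPKM. In early against undamaged liver 1 of the 30 (Nop2) was called higher and none lower. That call depended on single libraries. The list was thus hardly called as raised after hepatectomy, and its held calls do not show that organoids hold an injury response. Nop56, a core protein of box C/D small nucleolar particles, stood at 24.4 and 17.7 FPKM in organoids and 24.9, 23.7, 11.4 and 14.9 in early liver (undamaged 5.58 and 9.28). Nop2, an rRNA methyltransferase, stood at 16.0 and 13.98 in organoids and 24.8, 18.8, 12.4 and 12.7 in early liver (undamaged 3.66 and 7.13). Mybbp1a, a nucleolar protein, stood at 27.5 and 20.1 against 32.5, 27.0, 14.7 and 22.7 (undamaged 9.58 and 9.23). For all 3 genes both organoid values lay inside the early range and above both undamaged values, with 95% intervals of -0.47 to 0.88, -0.75 to 0.48 and -0.76 to 0.79. Fbl, the methyltransferase fibrillarin, was held at 10.4 and 8.26 against 12.7, 6.94, 6.69 and 8.94. Polr1a, the largest subunit of RNA polymerase I, was held at 3.01 and 2.71 against 2.97, 3.07, 2.08 and 2.08. The abundant nucleolar proteins were higher, nucleophosmin (Npm1) at 187 and 102 against 33.6, 29.7, 34.2 and 28.2 and nucleolin (Ncl) at 37.1 and 22.0 against 13.5, 13.7, 11.7 and 13.4.

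The held calls of this list need both organoid libraries and the authors' scaling. Without either organoid library 2 members were held, and leaving out 12 h replicate 1 or 2 left 8 and 7. With a pseudocount of 0.1 there were 8 held and with voom on recovered reads 7. With every library at the same FPKM sum 23 members were higher and none was held, with a median of 1.72 beside a shift of 1.35 for all genes, and Nop2 turned to 1.55 higher. Ncl lost its call without any 1 of the 6 libraries (adjusted p up to 0.288, difference 0.71 without organoid replicate 1) and Npm1 without organoid replicate 1 (0.0951). Polyamine synthesis, which also accompanies growth, was read with amino acid transport. In that list 2 of 16 genes were higher (12.5%) and 3 lower (18.8%), near the 12.2% and 14.2% of all genes. At the same FPKM sum 10 were higher and none lower. Amd1, S-adenosylmethionine decarboxylase, was higher at 19.1 and 21.4 FPKM against 4.65, 4.70, 8.001 and 3.77 (difference 1.80 ± 0.30 (SE), adjusted p = 0.00844), a call lost without either organoid library (adjusted p up to 0.0804). Odc1, ornithine decarboxylase, was not called at 34.6 and 25.8 against 22.0, 14.2, 24.4 and 18.7. The spermidine synthase gene Srm, not called either, stood at 31.4 and 27.9 against 54.8, 35.01, 31.4 and 38.4 and turned to 1.33 higher at the same FPKM sum.

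**Figure D3:**
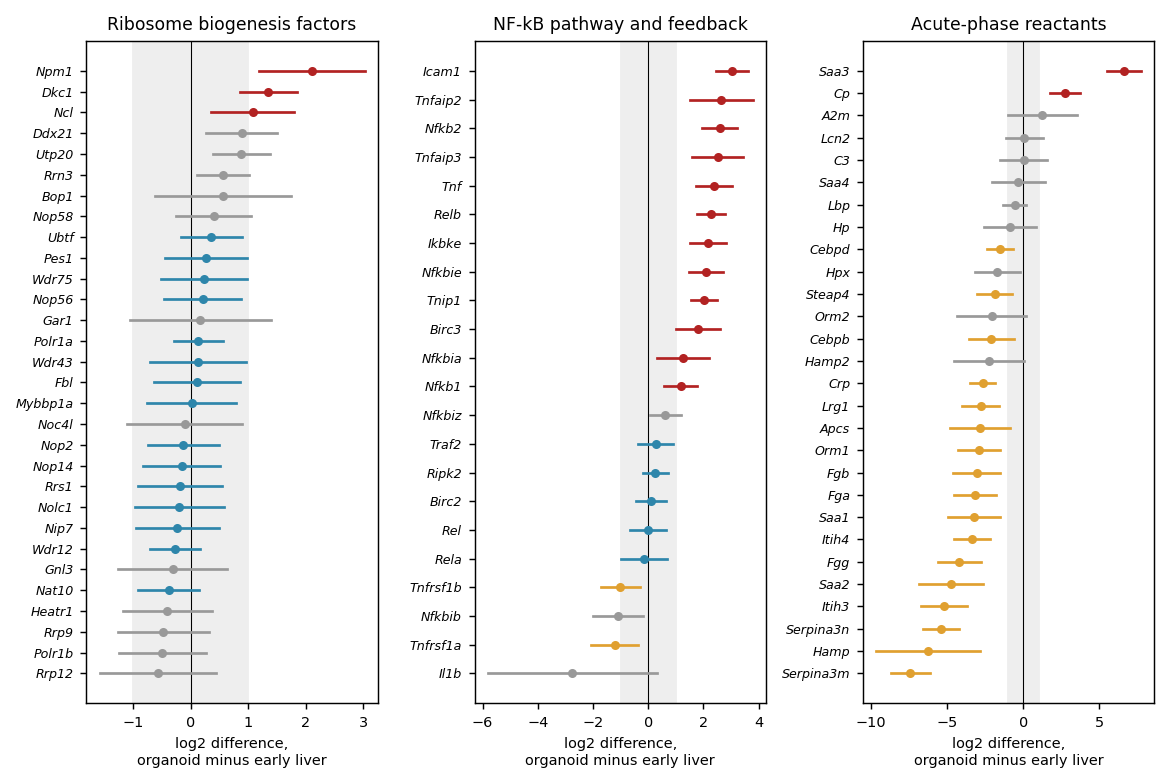
Points are log2 differences of organoids minus early liver with 95% intervals for each tested member of 3 lists, red where called higher, orange where called lower, blue where held and grey otherwise, and the shaded band runs from -1 to 1. Ribosome biogenesis members lie mostly in the band, NF-kB members mostly to its right, and acute-phase members mostly to its left with Saa3 and Cp as the 2 called exceptions.

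Targets of p53, the DNA damage and stress sensor, were mostly higher in organoids: 14 of 21 were higher, 2 lower and none held, with a median of 1.69. Mdm2, which marks p53 for degradation and is its target, stood at 26.1 and 32.4 FPKM against 9.24, 8.44, 10.5 and 5.72 (difference 1.69 ± 0.30 (SE), adjusted p = 0.00982). Ccng1, a cyclin induced by p53, stood at 55.4 and 76.3 against 5.95, 5.86, 7.88 and 6.002. Phlda3, an inhibitor of AKT, stood at 35.8 and 69.6 against 1.38, 3.95, 0.521 and 1.09. Eda2r, a receptor of the tumour necrosis factor family, stood at 6.22 and 8.91 against 0.0784, 0.0444, 0.0383 and 0. Tnfrsf10b, a death receptor, stood at 7.51 and 6.95 against 0.0659, 0.151, 0.281 and 0.106. None of these organoid values overlapped early liver, and the differences of Ccng1, Phlda3, Eda2r and Tnfrsf10b were 3.16 ± 0.26 (SE), 4.37 ± 0.42 (SE), 3.02 ± 0.21 (SE) and 2.84 ± 0.18 (SE). Of the 14, 12 were higher at both times taken alone. Mdm2 lost its call with either organoid library left out (adjusted p up to 0.0963), and the list then had 9 or 10 higher calls.

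Cdkn1a, the cell cycle inhibitor p21 that p53 induces and that rises early after hepatectomy, stood at 28.1 and 41.4 FPKM in organoids and 47.4, 11.9, 21.8 and 50.8 in early liver (undamaged 7.47 and 10.1). Gdf15, a stress cytokine, stood at 16.5 and 19.7 against 53.7, 12.4, 13.6 and 17.7. Both lay inside the early range, without a call, and with intervals (-1.30 to 1.82 for Cdkn1a) too wide to be held. The 2 lower members were higher in early than in undamaged liver. Gadd45g, a growth arrest gene, stood at 3.94 and 6.65 in organoids and 439, 655, 95.5 and 546 in early liver (undamaged 30.02 and 24.1). Plk3, a stress-activated kinase gene, stood at 3.63 and 2.51 against 136, 115, 40.7 and 47.0 (undamaged 16.7 and 15.6). The early minus undamaged differences were 3.65 ± 0.69 (SE) and 2.13 ± 0.28 (SE) (adjusted p = 0.0345 and 0.0140), calls lost without any 1 organoid or 6 h or undamaged library for Gadd45g (adjusted p up to 0.109) and without either organoid library or undamaged replicate 1 for Plk3 (up to 0.0596). Both organoid values of each gene lay below every early and every undamaged value. Their organoid differences from early liver were -5.84 ± 0.74 (SE) and -4.22 ± 0.29 (SE), with adjusted p = 0.00346 and 0.000646. Plk2, a related kinase gene, was higher at 8.64 and 13.4 against 1.41, 1.23, 1.9997 and 1.07.

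The unfolded protein response, which matches the folding capacity of the endoplasmic reticulum to the secretory load, was measured with the linked integrated stress response. Of 22 genes 11 were lower in organoids, 4 higher and 1 held, with a median of -1.32. At the same FPKM sum this turned to 2 lower and 5 higher, with a median of 0.26, and relative to the shift of all genes there were 10 lower and 4 higher. Hspa5, the chaperone BiP, stood at 135 and 90.7 FPKM in organoids and 440.0, 304, 994 and 503 in early liver. Creld2, a chaperone-like protein, stood at 14.8 and 13.8 against 201, 150.0, 361 and 268. Ddit3, the factor CHOP, stood at 3.47 and 3.20 against 17.3, 14.2, 13.1 and 13.9. All organoid values lay below early liver, with differences of -2.19 ± 0.51 (SE), -3.93 ± 0.36 (SE) and -1.84 ± 0.21 (SE) and adjusted p = 0.0220, 0.00141 and 0.00246. Psat1, an enzyme of serine synthesis, was higher at 40.5 and 30.0003 against 0.796, 0.641, 1.124 and 0.293. Ern1, the sensor IRE1-alpha, was higher at 6.54 and 6.50 against 1.93, 3.29, 3.22 and 1.78. Early liver was itself called lower than undamaged liver for Ern1 (difference -1.90), a call that depended on single libraries. Without organoid replicate 1, as without replicate 2, the list had 2 lower calls, and adjusted p reached 0.170 for Hspa5 and 0.161 for Ern1, which also lost its call without 6 h replicate 1 or 12 h replicate 2.

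Antioxidant and metal-handling genes each split, and few heat shock genes were called. Of 20 targets of the antioxidant factor Nrf2, 8 were higher, 2 lower and 2 held, with a median of 0.74. Nfe2l2, which encodes the factor, stood at 41.7 and 51.7 FPKM against 15.3, 7.71, 11.3 and 8.20 (difference 2.08 ± 0.35 (SE), adjusted p = 0.00826). Its inhibitor Keap1 was held at 5.16 and 6.32 against 6.52, 7.46, 5.76 and 8.61, and so was thioredoxin reductase (Txnrd1) at 15.3 and 21.2 against 22.6, 21.5, 14.2 and 25.7. Hmox1, haem oxygenase, was lower at 7.78 and 11.3 against 93.1, 33.9, 51.4 and 30.4 (difference -2.22 ± 0.50 (SE), adjusted p = 0.0203). Erythroid markers were 0.143 and 0.301 FPKM in sum in organoids and 136 to 7089 in early liver, and their part in the Hmox1 difference was not tested. At the same FPKM sum Keap1 and Txnrd1 turned to 1.32 and 1.52 higher. With 1 organoid library left out 3 or 5 members were higher and none lower, and Nfe2l2 and Hmox1 lost their calls (adjusted p up to 0.0814 and 0.164), Hmox1 also without 12 h replicate 1.

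Of 15 heat shock genes 3 were higher, 1 lower and 3 held, with a median of 0.22. Hspd1, the mitochondrial chaperonin HSP60, was held at 86.6 and 57.4 FPKM against 69.1, 54.7, 76.2 and 89.8, and at the same FPKM sum turned to 1.73 higher. Hspa1b, one of a pair of near-identical inducible HSP70 genes, was higher at 6.19 and 33.9 against 0.897, 2.58, 1.77 and 1.45, and that call was lost without organoid replicate 2 (difference 1.46 in place of 2.60), either 12 h library or 6 h replicate 1 (adjusted p up to 0.106). Without 1 organoid library at most 1 member was higher. Of 14 metal-handling genes 6 were lower, 1 higher and 2 held, with a median of -0.88. At the same FPKM sum this turned to 2 lower and 7 higher, with a median of 0.71, and relative to the shift of all genes there were 5 lower and 1 higher. Mt1 and Mt2 encode metallothioneins, the zinc and copper buffers that injury induces. Mt1 stood at 164 and 28.4 in organoids and 2286, 6895, 1224 and 7120.4 in early liver (undamaged 2.62 and 1389.9). Mt2 stood at 14.4 and 0.601 against 54.5, 182, 41.4 and 207 (undamaged 0 and 23.8).

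Both metallothioneins lay below every early library, with differences of -5.62 ± 1.08 (SE) and -4.29 ± 1.13 (SE) and adjusted p = 0.0125 and 0.0323. In each organoid library both were above undamaged replicate 1 and below undamaged replicate 2. Slc39a14, a zinc importer that interleukin-6 induces, was lower at 15.2 and 8.70 against 115, 58.9, 37.4 and 58.4. Slc30a10, a manganese exporter, was lower at 0.0392 and 0.00673 against 22.8, 6.18, 9.29 and 8.58. Without organoid replicate 2 the list had 1 lower call in place of 6, with adjusted p = 0.103 for Mt1 and up to 0.205 for Mt2 and 0.120 for Slc39a14. The Mt2 difference was -2.66 without organoid replicate 2, and its call was lost without 6 h or 12 h replicate 2 as well, and Slc39a14 without organoid replicate 1.

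Of 21 interferon response genes tested none was higher in organoids, 3 were lower (all genes 14.2%) and 4 were held, with a median of -0.61. At the same FPKM sum the counts turned to 7 higher and none lower, with a median of 0.40, and relative to the shift of all genes to none higher and 8 lower. Irf1, an interferon regulatory factor, was held at 5.94 and 5.22 FPKM against 4.36, 5.50, 3.53 and 3.42. Iigp1, an interferon-inducible GTPase, was lower at 24.02 and 18.5 against 202, 87.3, 69.1 and 89.4, below every early library, a call lost without either organoid library (adjusted p up to 0.132). None of the list was higher or lower without either organoid library, and at most 1 was held.

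Cell cycle genes, which liver induces after the hours sampled here, were higher in organoids. Of 17 genes of G1, the phase before DNA synthesis, 9 were higher, none lower and 3 held. Of 22 DNA replication genes 14 were higher and 1 held, and of 19 mitotic genes 18 were higher, with medians of 1.29, 1.42 and 1.48. Ccnd1, cyclin D1, stood at 61.1 and 83.1 FPKM in organoids and 3.80, 2.43, 1.79 and 0.727 in early liver (undamaged 1.32 and 4.80), a difference of 4.60 ± 0.31 (SE) with adjusted p = 0.000621. Mcm2, a subunit of the replicative helicase, stood at 4.92 and 4.24 against 0.369, 0.419, 0.389 and 0.529. Mki67, the proliferation marker Ki-67, stood at 4.70 and 3.46 against 0.633, 0.531, 0.224 and 0.194. No organoid value of these genes overlapped early or undamaged liver. The inhibitors Cdkn2a and Cdkn2b, neighbours whose products restrain the cyclin D kinases, were near 0 in liver. Cdkn2a stood at 19.5 and 29.5 against 0, 0, 0 and 0.136. Cdkn2b stood at 49.4 and 33.8 against 0.0369, 0.0806, 0.0649 and 0.115 (differences 4.60 ± 0.23 (SE) and 5.28 ± 0.22 (SE), adjusted p = 0.000357 and 0.000246). Cdkn1b, the inhibitor p27, was held at 3.96 and 3.93 against 3.99, 3.50, 3.44 and 4.26. Without organoid replicate 1 there were 5, 9 and 10 higher calls in the G1, replication and mitotic lists, and none lower.

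Targets of PPARA, the receptor that fatty acids activate in fasting, had 21 of 24 lower, none higher and none held, with a median of -3.84. In early against undamaged liver 7 of these were higher, and 3 to 6 with 1 library left out, fewest without either organoid or either undamaged library. Cyp4a14, a fatty acid hydroxylase, stood at 0 and 0.0378 FPKM in organoids and 280.4, 103, 579.5 and 162 in early liver (undamaged 3.71 and 0.919). Its near-identical relatives make the split of reads in this family uncertain. Cidec, a lipid droplet fusion protein, stood at 0.345 and 0.243 in organoids and 50.8, 99.8, 62.7 and 137 in early liver (undamaged 0.788 and 1.09). Plin2, the main lipid droplet coat protein of hepatocytes, stood at 38.2 and 33.6 against 720.1, 322, 818 and 740.1 (undamaged 70.6 and 88.3). All 3 were below undamaged liver in both organoid libraries, with differences from early liver of -7.81 ± 0.65 (SE), -5.99 ± 0.44 (SE) and -4.06 ± 0.48 (SE) and adjusted p = 0.00104, 0.000809 and 0.00279. Pdk4, which spares glucose by blocking pyruvate dehydrogenase, was lower at 0.0847 and 0.229 against 158, 7.07, 14.9 and 4.59, a call lost without either organoid or either 12 h library (adjusted p up to 0.208). The list had 15 lower calls without either organoid library.

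Gluconeogenesis and glucocorticoid targets had 13 of 20 lower, none higher and 1 held, with a median of -2.32. Pck1, the committed enzyme of gluconeogenesis, stood at 0 and 0.0802 FPKM in organoids and 187, 948, 347 and 650.5 in early liver. Tat, tyrosine aminotransferase, stood at 0.00952 and 0.0898 against 1312, 1130.2, 839 and 1456. Both were near 0 in organoids, with differences of -8.75 ± 0.70 (SE) and -10.11 ± 0.40 (SE) and adjusted p = 0.000947 and 0.000246. Fkbp5 and Per1, direct glucocorticoid receptor targets, were lower in organoids. Both were called higher in early than in undamaged liver, for Fkbp5 only with all 8 libraries and for Per1 not without any 1 organoid, 12 h or undamaged library (adjusted p up to 0.137 and 0.115). Fkbp5 stood at 2.80 and 0.844 against 18.2, 16.4, 12.6 and 21.8. Per1 stood at 1.64 and 2.34 against 7.25, 22.9, 9.17 and 22.5. The call of Per1 needed both organoid libraries and 12 h replicate 2 (adjusted p up to 0.157), and with 1 organoid library left out 6 or 7 members of the list were lower.

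Cholesterol synthesis went the other way. After hepatectomy 22 of 24 genes of this pathway were lower in early than in undamaged liver, falling to 4 to 11 called without any 1 library other than 6 h replicate 2 (21). In organoids 12 of the 24 were higher than in early liver, none lower and 1 held, with a median of 1.48. Acat2, the cytosolic acetoacetyl-CoA thiolase, stood at 25.0 and 24.4 FPKM in organoids, 2.66, 7.28, 4.51 and 4.32 in early liver and 21.9 and 17.4 in undamaged liver. Fdft1, squalene synthase, stood at 13.95 and 12.1 in organoids, 1.32, 3.17, 7.83 and 2.56 in early liver and 41.5 and 61.3 in undamaged liver. Sqle, squalene epoxidase, stood at 16.6 and 11.5 in organoids, 1.17, 4.36, 7.52 and 2.36 in early liver and 22.5 and 57.2 in undamaged liver. For these 3 genes every organoid value was above every early value, and for Fdft1 and Sqle below both undamaged libraries. Differences from early liver were 2.23 ± 0.35 (SE), 1.74 ± 0.43 (SE) and 1.80 ± 0.52 (SE), with adjusted p = 0.00695, 0.0276 and 0.0432. Insig1, the sterol sensor partner, was not called at 27.4 and 13.7 against 3.68, 13.6, 12.3 and 6.41. The list had 1 higher call without either organoid library, which took all 3 calls away (adjusted p up to 0.0655 for Acat2, 0.171 for Fdft1 and 0.247 for Sqle). Fdft1 also lost its call without 6 h replicate 1, and Sqle without that library or 12 h replicate 2.

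Glycolysis and hypoxia genes had 9 of 24 higher, 3 lower and 1 held, with a median of 0.16. Pkm, the pyruvate kinase of growing cells, stood at 96.2 and 192 FPKM in organoids and 15.0, 10.4, 8.27 and 5.23 in early liver (undamaged 0.566 and 10.4), above all liver values (difference 3.76 ± 0.40 (SE), adjusted p = 0.00193). Hk2, the hexokinase that adult hepatocytes hardly express, stood at 3.36 and 1.92 against 0.628, 0.638, 0.302 and 0.273 and lost its call without organoid replicate 1 (adjusted p = 0.0581). Aldoa, the muscle-type aldolase, was called higher in early than in undamaged liver, but not without any 1 organoid, 12 h or undamaged library (adjusted p up to 0.135). At 64.7 and 70.9 in organoids it lay inside the early range of 52.4, 95.4, 61.0 and 83.1 (undamaged 15.4 and 20.2), not called, and 1.68 higher at the same FPKM sum. The list had 4 higher calls and none lower without organoid replicate 1.

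Genes for plasminogen activation and matrix remodelling had 7 of 17 higher, none lower and 1 held, with a median of 0.89. Thbs1, thrombospondin 1, stood at 6.78 and 7.09 against 18.1, 8.59, 7.30 and 0.801 (undamaged 0 and 0.454). Both organoid values of Thbs1 lay inside the early range and above undamaged liver, and it was not called. Timp1, an inhibitor of metalloproteinases, stood at 34.5 and 10.6 against 20.8, 9.001, 9.91 and 0.648 (undamaged 0 and 1.55). Plat, tissue plasminogen activator, was higher at 13.2 and 23.1 against 0.839, 0.191, 0.210 and 0.0410. Mmp7, the epithelial metalloproteinase matrilysin, was higher at 41.3 and 27.3 against 0.817, 0.560, 0.338 and 0.150. Cd44, the hyaluronan receptor, was higher at 42.3 and 30.7 against 6.43, 2.38, 2.94 and 1.35. None of the 3 overlapped early liver, with adjusted p = 0.000905, 0.000373 and 0.00329. YAP and TEAD targets, which respond to cell shape and stiffness, had 5 of 16 higher, none lower and 2 held, with a median of 0.64, and Ankrd1 stood at 10.6 and 7.66 against 1.08, 1.08, 0 and 0. Yap1 itself was held at 7.56 and 8.21 against 5.87, 6.06, 5.66 and 7.49.

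Hepatocyte identity was checked against its defining genes. Alb, albumin, stood at 3132 and 86.4 FPKM in organoids and 12875, 13547, 13594 and 17195 in early liver (undamaged 48653 and 44646). The 2 organoid libraries differed by more than an order of magnitude, and the call (difference -4.76 ± 1.41 (SE), adjusted p = 0.0464) was lost without organoid replicate 2 (-2.18 in its place, and -7.34 without replicate 1) or any 1 early library, with adjusted p up to 0.160. Apob, the protein of very-low-density lipoprotein, stood at 114 and 120.0 against 103, 179, 138 and 232, inside the early range, and 1.34 higher at the same FPKM sum. Early liver was itself called lower than undamaged liver for Apob (difference -2.20, limma adjusted p = 0.0440), a call that depended on single libraries. Foxa2, a lineage factor, was held at 8.11 and 8.88 against 5.93, 8.70, 7.25 and 7.88. Hnf4a, below every early library at 43.5 and 37.9 against 80.8, 87.0, 53.5 and 86.8, was not called. Afp, the fetal albumin relative, was higher at 3.17 and 33.6 against 0.305, 0.887, 0.710 and 0.323, a call lost without organoid replicate 2 (1.44, and 4.49 without replicate 1) or any 1 early library (adjusted p up to 0.101).

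Over the 5 hepatocyte function lists 95 of 124 tested genes were lower, 2 higher and 2 held, with a median of -3.65. Lower were 15 of 26 secreted protein and lineage genes, 27 of 31 cytochrome P450 and drug metabolism genes, 21 of 21 genes of the urea cycle and amino acid breakdown, 12 of 17 bile acid genes and 20 of 30 complement and coagulation genes. Cyp2e1, the ethanol-inducible P450, stood at 0 and 0.191 FPKM against 703, 1109.6, 1354 and 1709. Arg1, the last enzyme of the urea cycle, stood at 0.123 and 0.0617 against 350.1, 1438, 657 and 1567. With 1 organoid library left out the urea cycle list had 15 or 17 lower calls, the P450 list 19 or 22 and the complement list 9 or 12.

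Biliary and progenitor markers were higher, with 12 of 16 higher, none lower and a median of 2.31. Spp1, osteopontin, stood at 4416 and 2695 FPKM in organoids and 61.2, 15.7, 41.3 and 8.19 in early liver (undamaged 6.45 and 333). Sox4, a factor of the ductal programme, stood at 14.1 and 15.0 against 0.0535, 0.0389, 0.0753 and 0. Its relative Sox9 stood at 10.7 and 10.1 against 4.32, 1.64, 0.873 and 2.77. Krt19, a keratin of bile duct cells, stood at 9.80 and 17.3 against 2.99, 1.19, 0.633 and 0.0690. Epcam, their surface marker, stood at 6.89 and 5.24 against 1.36, 1.08, 0.221 and 0.0784. None overlapped early liver, and the call of Sox9 alone among these was lost without either organoid library (adjusted p up to 0.125). The list summed to 4766 and 3008 FPKM in organoids and 42.9 to 122 in early liver. Spp1 gave most of the organoid sums. The keratins of hepatocytes overlapped early liver and were not called. Krt8 stood at 269.5 and 89.3 against 49.6, 161, 87.8 and 262. Krt18 stood at 446 and 187 against 200.4, 561, 201 and 440.3, and was 1.63 higher at the same FPKM sum. The part of a ductal programme in the inflammatory and p53 differences was not tested.

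Many markers of other liver cells were at or near 0 in organoids, but not all, and least so in the Kupffer and macrophage list. All 12 lymphocyte markers were under 0.1 FPKM in both organoid libraries, as were 9 of 13 neutrophil, 11 of 16 endothelial, 11 of 17 stellate and mesenchymal and 5 of 6 erythroid markers, and in early liver no marker of these 5 lists was that low in all 4 libraries. Clec4f, the Kupffer cell lectin, stood at 0 and 0.00795 FPKM in organoids and 37.9, 25.4, 21.9 and 25.0 in early liver. Stab2, a scavenger receptor of sinusoidal endothelium, stood at 0.0261 and 0.0179 against 9.97, 7.52, 4.84 and 7.07. S100a9, the neutrophil calprotectin subunit, stood at 0.263 and 0.0752 against 427, 55.2, 206 and 32.1. The haemoglobin gene Hba-a1, one of near-identical copies, stood at 0 and 0.0967 against 3459, 356, 2877 and 71.9. S100a9 and Hba-a1 lost their lower calls without either organoid library (adjusted p up to 0.0626 and 0.0734). Replicate 1 of each early time held the most neutrophil and erythroid signal. The Kupffer and macrophage list summed to 131 and 191 FPKM in organoids and 186 to 570 in early liver, and the largest part of both organoid sums was Cd14, the endotoxin co-receptor, at 109 and 190.0 against 196, 14.7, 179.6 and 16.1 and not called. Of the 17 markers 4 were at 0 and 9 under 0.1 FPKM in both organoid libraries. Mitochondrially encoded mRNAs summed to 12170 and 11858 FPKM in organoids and 88322 to 492656 in early liver, and their part in the differences was not tested.

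**Figure D4:**
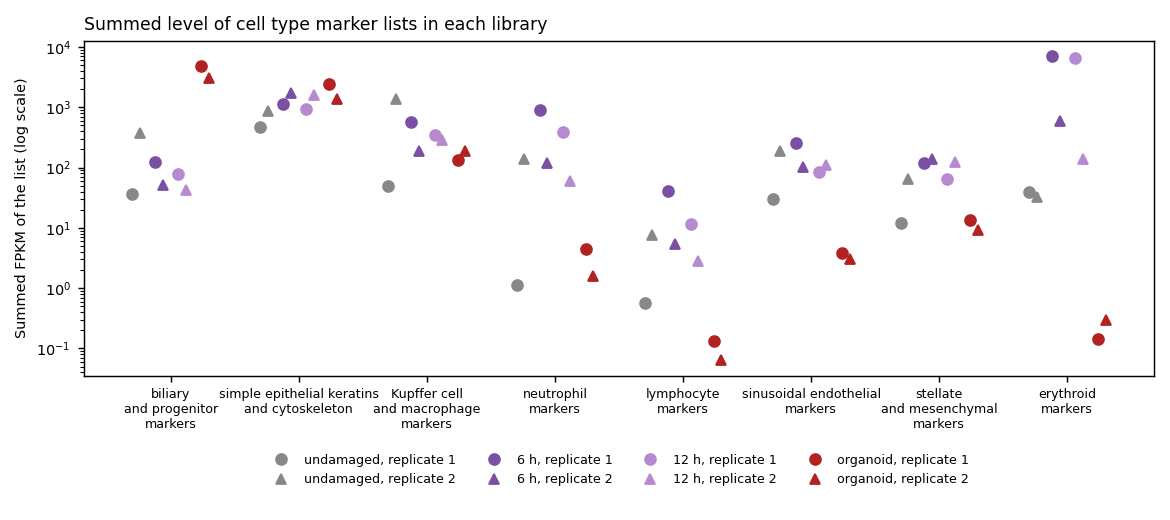
Points give the summed FPKM of each cell type marker list on a log axis in the 8 libraries, coloured by group, with circles for replicate 1 and triangles for replicate 2. Organoids lie below all early libraries for neutrophil, lymphocyte, endothelial, stellate and erythroid markers and above them for biliary markers.

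Genes that hepatectomy raised were also taken as a set without regard to function. In replicate 1, 53 genes stood at least 2 above both undamaged libraries at 6 h and at 12 h on the log2(FPKM + 1) scale, and these were then read in replicate 2 of both times, which had not chosen them. Relative to that reading, organoids were at least 1 lower for 34 genes (64.2%), at least 1 higher for 7 (13.2%) and within 1 for 12 (22.6%), with a median of -2.24. Of the 12 within 1, 7 were at 0 in both libraries read, so 5 of the 46 genes detected there lay within 1. Over all 12146 genes 65.1% lay within 1, 20% were lower and 14.9% higher. The 53 genes were chosen as high in early liver, while many of all genes are too weak to lie 1 lower on this scale. The shares over all genes are therefore no matched background, and the larger lower share of the set is partly fixed by the choice. The same undamaged libraries chose the set, so the height of the rise is not tested here. Organoids were above both undamaged libraries for 15 of the 53 and below both for 19, beside 4273 and 4373 of all 12146 genes.

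The 34 lower genes included the globin gene Hba-a1 and the lipid genes Cyp4a14, Cyp4a10, Cidec, Plin2 and Pdk4. The 5 detected genes within 1 were Thbs1, Enc1, Msln, Igfbp6 and Ccdc120, of which Igfbp6 differed by -1.88 in the main comparison, not called. Those higher than the replicate 2 reading included Snord55, Gm26809, Timp1, Ier3, Slpi and Slc7a6. Against all 4 early libraries Ier3 alone of these was called higher. Snord55, Gm26809, Timp1, Slpi and Slc7a6 had uncalled differences there of 0.23, 2.73, 1.36, 1.17 and 0.92. Slpi, an inhibitor of leukocyte elastase, stood at 39.1 and 34.3 FPKM in organoids and 11.2 and 1.60 in the libraries read. Slc7a6, an amino acid transporter, stood at 5.25 and 6.36 in organoids and 1.01 and 1.14 there. Of the 150 genes that replicate 1 showed as lowered, organoids were at least 1 lower than the reading for 90 (60.0%), within 1 for 43 (28.7%) and at least 1 higher for 17 (11.3%), and the higher ones included Fdft1. With replicate 2 choosing and replicate 1 read, 47 of 76 raised genes were lower, 15 within 1 and 14 higher. Of 111 lowered genes chosen that way, 43 (38.7%) were lower, 39 within 1 and 29 (26.1%) higher, so the counts for lowered genes depended on the replicate that chose them.

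**Figure D5:**
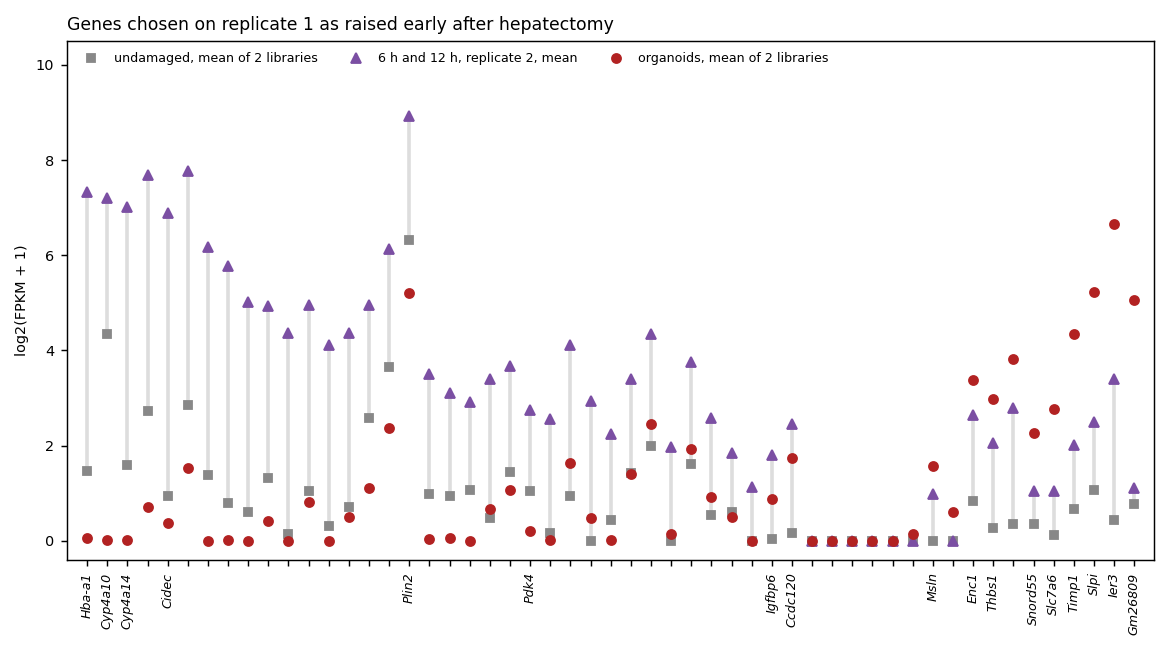
Each column is 1 of the 53 genes chosen on replicate 1 as raised at 6 h and 12 h, ordered by the organoid value minus the replicate 2 reading, in log2(FPKM + 1), with labels for genes named in the text. Grey squares are undamaged liver, purple triangles the replicate 2 reading and red circles organoids, and for 34 genes the red circle lies at least 1 below the triangle.

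The 10 called genes with the largest organoid excess were Sprr1a, Cxcl5, Ccl20, Spp1, Cpe, Saa3, Tspan8, Ccl2, Cdh17 and Scd2. Sprr1a, a cornified envelope protein of stressed epithelia, stood at 500.3 and 412 FPKM against 0.382, 0.324, 0 and 0.357. Cpe, a carboxypeptidase of secretory granules, stood at 408 and 270.4 against 7.38, 1.29, 2.28 and 0.0490. Cdh17, an intestinal cadherin, stood at 98.7 and 39.7 against 0.0344, 0, 0 and 0. Tspan8, a tetraspanin, stood at 163 and 75.7 against 1.15, 0.241, 0 and 0.0376. Lack of overlap with early liver was a condition for choosing these 10 genes and the 10 furthest below. Scd2, a fatty acid desaturase, stood at 105 and 79.1 against 1.38, 1.08, 0.348 and 0.305. The 10 genes furthest below were the major urinary protein genes Mup12, Mup7, Mup15, Mup17 and Mup3, whose near-identical copies make single levels uncertain, and Apoa2, Serpina3k, Tat, Cyp2e1 and Arg1. Apoa2, an apolipoprotein of high-density lipoprotein, stood at 4.43 and 5.34 against 4916, 15125, 5113 and 18514. Serpina3k, a protease inhibitor, stood at 9.70 and 2.27 against 8472, 5531, 12115 and 9949. Of these 10 Mup17 alone lost its call with 1 library left out, either organoid library (adjusted p up to 0.101).

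At the other end, the most abundant genes held within 2-fold included genes of translation and RNA handling. Eif4a1, the helicase of translation initiation, stood at 96.9 and 70.5 FPKM against 107, 74.8, 89.2 and 84.4. Ddx5, an RNA helicase, stood at 65.5 and 68.0 against 77.9, 61.3, 86.7 and 59.4. Lgals9, the lectin galectin-9, stood at 72.9 and 72.7 against 54.9, 77.9, 76.6 and 81.0. Oaz1, the antizyme that limits ornithine decarboxylase, stood at 56.8 and 71.5 against 69.8, 41.5, 65.0 and 88.4. Their 95% intervals were -0.99 to 0.81, -0.94 to 0.78, -0.81 to 0.85 and -0.95 to 0.94. Eif4a1, Ddx5 and Oaz1 turned to 1.66, 1.66 and 1.73 higher at the same FPKM sum.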

How the data were processed

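Gene expression was measured by RNA sequencing. The authors' deposited table gives values labelled FPKM for 54532 genes in all libraries of the series. The name stands for fragments per kilobase per 1000000 mapped fragments. Per the submitters' processing notes reads were aligned with HISAT2 2.0.5 to mm10. The counter, annotation, strand setting, filters and scaling between libraries are not stated there, so reads of near-identical, overlapping and antisense genes cannot be told apart. Low FPKM values were whole multiples of 1 read in 98.2% to 98.7% of cases (within 0.05 reads, up to 20 reads, with GENCODE M21 exon lengths), which gave the depths. The FPKM step of 1 read also implies a library size. Recovered reads were 0.478 and 0.524 times that size in organoids and 0.886 to 1.53 times in early liver. The deposited values are thus not per 1000000 recovered reads, and a factor between libraries may be built in. The source of such a factor was not tested. Depth limits precision for genes under 1 FPKM.

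Columns were matched to samples by name, and symbols to 54495 of 54532 identifiers. Genes with at least 1 FPKM in 2 of the 6 libraries were tested on log2(FPKM + 1), a scale that understates changes of low genes. The test was limma 3.58.1 in R 4.3.3, with group means for organoids, 6 h and 12 h, a variance trend, robust moderation and Benjamini-Hochberg adjustment over all genes tested (two-sided). Comparisons with undamaged liver used the same fit on 8 libraries. On simulated data of 11668 genes, 42.7% of changes of 1.5 and 83.0% of changes of 3 (log2) were recovered, with 4.05% of calls false. The simulation drew each library independently, so it does not cover deviations that libraries share. Summaries used Python 3.11.15. Alternatives changed the pseudocount, filter, scaling, fit and libraries, 1 at a time. Subtracting the median shift after rescaling was an alternative chosen after seeing the data.

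The members and gene lists were chosen with earlier results of these data known. Genes are named where they had the 10 largest called differences each way or led their list. The first called or held members of each list and the most abundant held genes are named too. The 10 largest needed a mean of at least 5 FPKM in the higher group and no overlap between organoid and early libraries. Predicted genes, clones, pseudogenes and genes without a symbol were left out of the 10 largest and the most abundant held genes. C3, Ccl6, Ccng1, Cebpd, Cxcl16, Fga, Fgg, Phlda3, Pim1, Pim3, Polr1a, Saa2, Srm, Slpi, Slc7a6, Snord55, Gm26809, Ccdc120, Enc1, Igfbp6 and Msln were named after their values were seen. Some genes that the rule names are not reported here. Promoters are RefSeq sequences of GRCm38.p6.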

Additional observations from a re-analysis of the deposited data

How the results depend on the processing

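With every library at the same FPKM sum, the median difference of all genes was 1.35 (1.45 against 6 h, 1.26 against 12 h, 1.47 for organoids against undamaged liver, 0.15 for early against undamaged liver). Calls higher, lower and held were then 7012, 853 and 197 in the main comparison. They were 6782 higher and 772 lower against 6 h, 5772 and 708 against 12 h, 6551 and 666 for organoids against undamaged liver, 108 and 179 for early against undamaged liver, and 193 higher, 33 lower and 4 held over the early injury lists. Relative to the shift of all genes, 665 genes and 5 early list genes were held. Under the same sum these turned positive: Rela 1.54, Il6st 0.24, Lifr 0.12, Stat3 1.29, Tnfrsf1a 0.51, Tnfrsf1b 0.46, Txnrd1 1.52, Keap1 1.32, Hspd1 1.73, Nop2 1.55, Srm 1.33, Egfr 0.20, Aldoa 1.68, Apob 1.34, Krt18 1.63, Eif4a1 1.66, Ddx5 1.66 and Oaz1 1.73. These 18 are only the named genes that changed sign. A further 24 named genes, held or uncalled on the authors' scaling, kept their sign and gained a call at the same sum. A named gene missing from the list is therefore not shown to be stable to scaling.

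Without a filter there were 944 higher, 986 lower and 17600 held genes, 552 and 676 against 6 h, 592 and 596 against 12 h, and 38 lower over the early lists. With at least 5 FPKM the counts were 808 higher and 1077 held, 731 and 689 higher against 6 h and 12 h, and 20 held over the early lists. A pseudocount of 0.1 left 1562 held (22 of the early lists) and voom on recovered reads 1531 (19).

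With 1 library left out, the main comparison had 654 to 1476 higher, 535 to 1845 lower and 939 to 3480 held. The 6 h comparison had 487 to 1135 and 411 to 1460, the 12 h comparison 481 to 1328 and 393 to 1577, early against undamaged liver 17 to 230 and 75 to 446, and organoids against undamaged liver 483 to 1161 and 528 to 1418. The early lists had 49 to 83 higher, 21 to 68 lower and 8 to 47 held. Where a group was left with 1 library, its spread was assumed to be that of the others. The cause of these changes was not tested.

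For genes raised in replicate 1, organoids lay within 1 in 37.5% at a threshold of 1, and were higher in 25.8% at the same FPKM sum. For lowered genes, organoids were lower in 38.7% and higher in 26.1% when replicate 2 chose them, and lower in 20% and higher in 37.1% at the same sum.

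Same-numbered 6 h and 12 h libraries deviated together (correlation of replicate differences 0.50). The main fit treats them as independent, so its standard errors and intervals may be too narrow. Organoids did not deviate with 6 h (0.055) or 12 h (0.011), so the numbers do not pair organoids with liver. With a replicate block there were 1475 higher, 1831 lower and 3495 held genes. Of the 131 called genes named in the text, 126 kept their sign in every setting run and 75 also their call, and of the 52 uncalled ones 12 kept their sign. The median of the lymphocyte list could not be computed at the stricter filter, which left none of its genes.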

Other observations

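Lists of lipid synthesis, cell shape and amino acid uptake were read as well, beside 12.2% higher, 14.2% lower and 28.5% held over all genes. Of 18 lipogenesis genes 3 were higher in organoids (16.7%), 4 lower (22.2%) and none held, with a median of 0.40. Acly, the enzyme that makes cytosolic acetyl-CoA, stood at 45.0 and 34.7 FPKM in organoids and 4.64, 7.03, 8.28 and 3.74 in early liver (undamaged 66.6 and 33.8), above every early library (difference 2.60 ± 0.36 (SE), adjusted p = 0.00443). Thrsp, a lipogenic nuclear protein of liver and fat, stood at 0.512 and 1.20 against 52.3, 58.5, 8.27 and 21.7, below every early library (difference -3.97 ± 0.41 (SE), adjusted p = 0.00181). Without organoid replicate 1 none of the list was higher and 2 were lower, and without replicate 2 the counts were 1 and 2; Acly lost its call without replicate 1 (adjusted p = 0.0515).

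Of 20 genes of simple epithelial keratins and the cytoskeleton, 11 were higher, none lower and none held, with a median of 1.30. Anxa2, a membrane and actin binding annexin, stood at 103 and 53.8 FPKM against 10.3, 7.42, 4.27 and 2.36 (undamaged 0.353 and 2.96), a difference of 3.56 ± 0.37 (SE) with adjusted p = 0.00189. Vim, the intermediate filament vimentin, stood at 67.8 and 21.5 against 15.0, 10.9, 5.92 and 3.63 (undamaged 0.216 and 4.20), a difference of 2.15 ± 0.49 (SE) with adjusted p = 0.0219. For both genes the organoid values lay above all liver values. Without organoid replicate 1 the list had 4 higher calls, and the Vim difference was 1.35, a call also lost without 6 h or 12 h replicate 2 (adjusted p up to 0.117).

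Of 16 genes of amino acid transport and polyamine synthesis 2 were higher (12.5%), 3 lower (18.8%) and none held, so the higher and lower shares lay near those of all genes. The median was -0.24 (1.41 at the same FPKM sum, with 10 higher and none lower). Slc38a4, a hepatocyte amino acid importer, stood at 9.18 and 16.4 FPKM against 48.3, 119.5, 56.7 and 143 (undamaged 299 and 199), lower than every liver value (difference -2.66 ± 0.58 (SE), adjusted p = 0.0187), and no gene of the list was lower without either organoid library (adjusted p for Slc38a4 up to 0.159). Of 16 circadian clock genes Per1 alone was lower, none was higher and 3 were held, with a median of -0.51 (0.94 at the same FPKM sum, with 3 higher), and 6 were lower without 6 h replicate 1. The hours of day at which the liver was taken are not stated in the labels.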
